A study of Mus musculus with 4 samples.

Results

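The genes described here are 32 mouse genes of the TNF receptor superfamily and of the TRAF family of adaptors, measured by the open chromatin around them. ATAC-seq marks open chromatin by letting a transposase cut accessible DNA, and each library had been reduced by the authors to a list of peaks. Peaks of the 4 lists that overlapped by at least 1 bp were merged into regions, and a region went to the protein-coding gene whose interval lay nearest its midpoint, within 100 kb, on GRCm38. Of 97394 regions, 183 went to a member gene, and every member had at least 1. Of the 16541 genes with a region, the members were 32. The members were named by gene family and grouped by role, with earlier results of these data known.

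The KO group held 2 libraries, KO-1 and KO-2, of TOX KO CD4 T cells, gated as Ly5.1+ Ly5.2- cells low in PD1, LAG3 and CD39. The WT group held 2 libraries, WT-1 and WT-2, of CD4 T cells with intact TOX, gated as Ly5.1+ Ly5.2+ cells high in those 3 proteins. Where a genotype has a pair of values, replicate 1 comes before replicate 2. All cells carried the SMARTA transgenic T cell receptor, were naive at transfer into cytoxan-treated mice bearing the B16-GP61 melanoma, were taken on day 11 from lymph nodes draining the tumor, and were frozen before transposition. TOX is a DNA-binding protein known from exhausted T cells. Genotype, sort gate and congenic marker changed together and cannot be told apart. How the gene was deleted, and whether replicates came from separate mice, is not given in the labels, so the spread between replicates may be technical.

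Receptors of the TNF superfamily are cell surface proteins that bind trimeric ligands on neighbouring cells. Those with a death domain can recruit caspases, and most of the others recruit TRAF proteins, which are adaptors or ubiquitin ligases that lead to NF-kB and MAP kinase signalling. On T cells OX40, CD137, GITR, CD27 and their relatives give costimulation after the antigen receptor has fired. On B cells and plasma cells the receptors for BAFF and APRIL and CD40 carry survival and help signals.

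Upstream sequences are shown for members whose gene starts were open in WT alone, in every library or in none, so that B cell and T cell receptors can be set side by side. Each line holds the 250 bases before a start on GRCm38.p6, from RefSeq, read 5′ to 3′ on the gene's strand. The first entry, Tnfrsf13b, had a start peak in both WT libraries and neither KO library. Tnfrsf13c had a start peak in all 4 libraries, and Tnfrsf17 had none. The T cell receptors Tnfrsf4, Tnfrsf9 at its second start, and Tnfrsf18 had start peaks in all 4 libraries. Ngfr had one in both WT libraries and neither KO library.
Tnfrsf13b, chr11:61126505-61126754 on the plus strand: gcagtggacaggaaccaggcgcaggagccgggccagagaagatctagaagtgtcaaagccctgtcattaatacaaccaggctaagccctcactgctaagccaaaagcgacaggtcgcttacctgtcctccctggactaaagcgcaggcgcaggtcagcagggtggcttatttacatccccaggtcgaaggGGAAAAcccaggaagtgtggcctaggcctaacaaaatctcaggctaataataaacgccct
Tnfrsf13c, chr15:82224381-82224630 on the minus strand: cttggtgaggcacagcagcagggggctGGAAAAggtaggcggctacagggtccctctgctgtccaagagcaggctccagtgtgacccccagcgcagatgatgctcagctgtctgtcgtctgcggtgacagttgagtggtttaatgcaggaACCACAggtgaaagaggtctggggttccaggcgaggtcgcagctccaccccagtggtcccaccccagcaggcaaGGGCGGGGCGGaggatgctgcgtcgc
Tnfrsf17, chr16:11313559-11313808 on the plus strand: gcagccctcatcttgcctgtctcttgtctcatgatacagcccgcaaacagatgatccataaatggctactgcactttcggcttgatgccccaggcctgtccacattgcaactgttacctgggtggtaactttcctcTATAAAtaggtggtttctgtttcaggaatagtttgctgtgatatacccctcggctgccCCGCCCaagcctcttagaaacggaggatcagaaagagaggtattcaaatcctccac
Tnfrsf4, chr4:156013445-156013694 on the plus strand: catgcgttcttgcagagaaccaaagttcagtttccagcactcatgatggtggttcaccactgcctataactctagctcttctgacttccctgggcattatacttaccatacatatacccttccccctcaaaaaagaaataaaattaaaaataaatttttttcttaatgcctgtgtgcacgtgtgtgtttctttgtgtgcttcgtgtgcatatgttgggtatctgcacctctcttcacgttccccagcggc
Tnfrsf9, second start, chr4:150927749-150927998 on the plus strand: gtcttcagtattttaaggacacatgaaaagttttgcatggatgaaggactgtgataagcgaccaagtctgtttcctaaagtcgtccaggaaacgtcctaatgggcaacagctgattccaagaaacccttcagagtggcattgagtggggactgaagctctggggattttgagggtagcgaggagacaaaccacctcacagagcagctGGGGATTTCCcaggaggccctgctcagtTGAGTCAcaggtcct
Tnfrsf18, chr4:156026072-156026321 on the plus strand: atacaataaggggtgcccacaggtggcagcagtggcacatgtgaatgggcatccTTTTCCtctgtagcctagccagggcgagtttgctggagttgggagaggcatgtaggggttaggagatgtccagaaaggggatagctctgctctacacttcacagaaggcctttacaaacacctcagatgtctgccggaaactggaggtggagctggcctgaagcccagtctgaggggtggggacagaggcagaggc
Ngfr, chr11:95587699-95587948 on the minus strand: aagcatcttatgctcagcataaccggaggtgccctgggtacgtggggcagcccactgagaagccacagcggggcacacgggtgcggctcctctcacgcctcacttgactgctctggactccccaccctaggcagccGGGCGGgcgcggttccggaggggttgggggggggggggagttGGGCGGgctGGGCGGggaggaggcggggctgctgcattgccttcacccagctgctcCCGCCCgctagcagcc
Capitals mark matches, on either strand, to 7 short motifs. They are an NF-kB motif (GGGNN followed directly by TTTCC), AP-1 (TGANTCA, whose hits on both strands are 1 site), ETS (CCGGAAG), RUNX (TGTGGT), NFAT (GGAAAA), the GC box (GGGCGG) and the TATA box (TATAAA).

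Tnfrsf9 carried the NF-kB motif 43 to 34 bp before its second start and the AP-1 motif 15 to 9 bp before it. The NF-kB motif lay in the upstream window of 1.43% of 21263 protein-coding starts and in 3 of the 29 member starts, those of Tnfrsf9, Tnfrsf25 and Traf3. In Tnfrsf25 the NF-kB and NFAT matches overlap. AP-1 was in 6.13% of all windows and in 3 of 29, and ETS in 8.98% and 4 of 29. RUNX was in 12.4% of all windows and in 5 of 29, NFAT in 19.8% and 9 of 29, and the TATA box in 11.6% and 2 of 29. Tnfrsf13b had an NFAT match 60 to 55 bp before its start and no GC box. Tnfrsf13c had 2 GC boxes that overlap by 1 base, and Ngfr had 4. GC boxes lay in 42.6% of all windows and in 17 of 29. None of the 7 motifs was found in the Tnfrsf4 window. These matches are letters in a window and are not shown to be binding sites.

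The peak lists held 43078 and 61773 peaks in KO and 56852 and 61489 in WT. They covered 20.9, 27.6, 26.8 and 29.6 Mb in the same order, and read depth is unknown because no counts were given. All 12 T cell marker genes had peaks in both genotypes. B cell markers differed between the genotypes. Of the 128 regions at 12 B cell genes, 11 had a peak in KO-1 and 19 in KO-2, against 97 and 106 in WT. Among these genes, Ms4a1 and Fcer2a had no peak in either KO library. Markers of myeloid and dendritic cells had peaks at 29 and 43 of 94 regions in the KO libraries and at 69 and 73 in the WT libraries. In such bulk samples, fewer cells of a type and less open chromatin per cell cannot be told apart.

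Fewer member regions had a peak in the KO libraries than in the WT libraries. KO-1 had a peak at 95 of the 183 member regions and KO-2 at 116, against 130 and 140 in WT. The share was 57.7% ± 8.11 in KO and 73.8% ± 3.86 in WT (SD, n = 2 each), a difference of -16.1 percentage points. Over all 97394 regions the share was 50.5% ± 13.5 in KO and 57.3% ± 4.13 in WT, a difference of -6.84 points, and over the regions with a gene within reach the difference was -9.71. Without the B cell receptors the members' difference was -8.86. With every list cut to the length of the shortest, the difference over all members was -8.97. The cut was not made for the all-region values above, so they cannot be set against -8.97. The genotypes did not overlap at the members, while over all regions the KO libraries lay at 40.9% and 60.0% and the WT libraries at 54.4% and 60.2%. With 2 libraries against 2, the smallest p that an exact two-sided permutation test can give is 0.33, so the groups are described without a test.

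A region is called KO-only here when both KO libraries and neither WT library had a peak, and WT-only in the reverse case. KO-only regions numbered 1 of 183 at the members (0.546%), against 1.78% of all regions. WT-only regions numbered 28 (15.3%), against 8.80% of all regions and 9.65% of the regions that had any gene within reach. A further 76 regions (41.5%) had a peak in all 4 libraries, against 27.6% of all regions. The other 78 were mixed, and 53 of these had a peak in a single library. At least 1 WT-only region lay at 14 of the 32 genes (43.8%), against 26.6% of all genes with a region. A region with a peak in all 4 libraries was found at every member but 5, namely Tnfrsf17, Cd40, Tnfrsf11b, Edar and Ngfr. Leaving out WT-1 or WT-2, which asks for a peak in 1 WT library in place of 2, moved the WT-only count to 46 or 45, and leaving out KO-1 or KO-2 moved the KO-only count to 17 or 10.

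**Figure D1:**
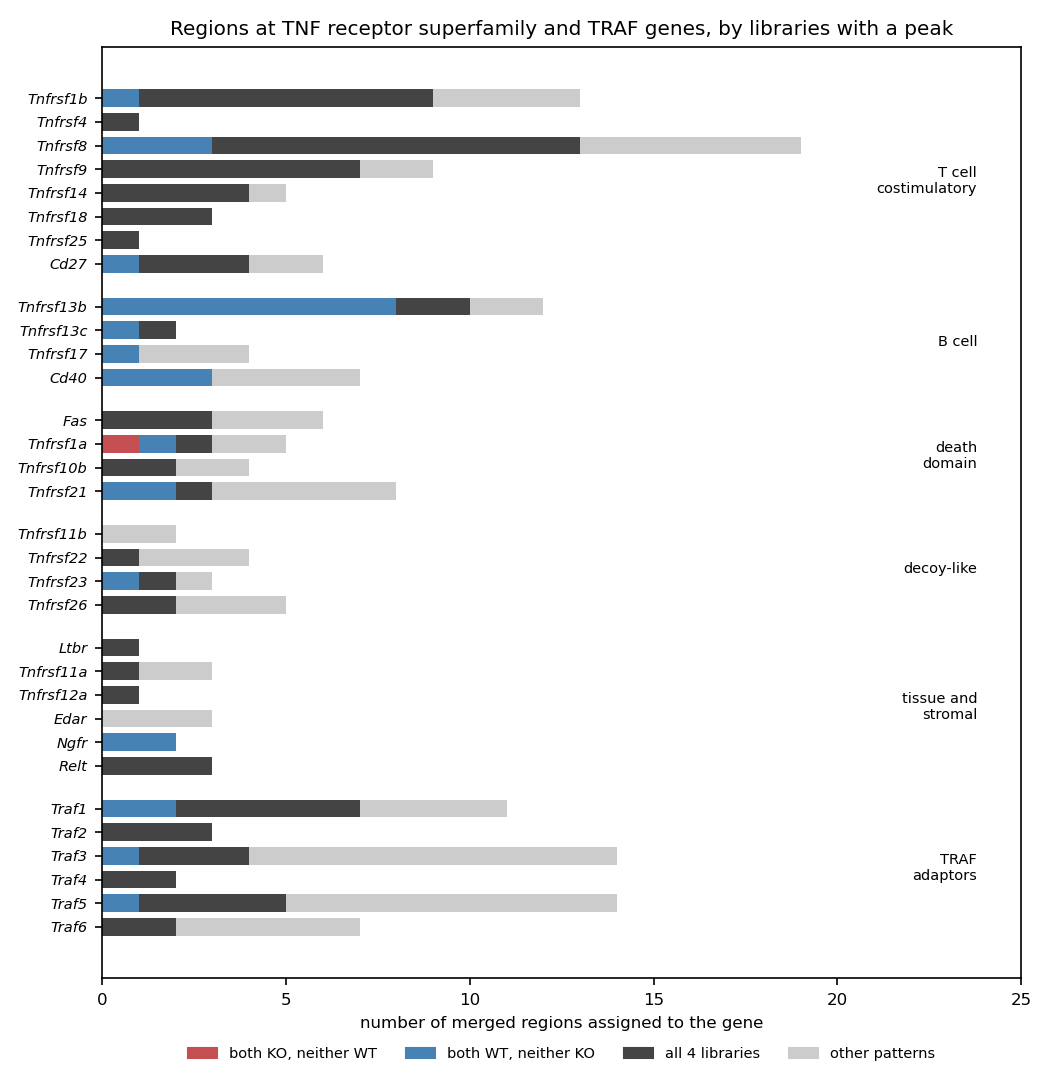
Number of open chromatin regions (x axis) at each of the 32 member genes (y axis, grouped by role), split by whether a peak was found in all 4 libraries, in both KO and neither WT library, in both WT and neither KO library, or in another combination. Tnfrsf13b has 8 WT-only regions of 12, and Tnfrsf8, with 19 regions, has 3.

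The receptors with known roles on B cells held the largest share of WT-only regions among the 6 role groups. None of their 25 regions was KO-only, 13 were WT-only (52.0%, against 8.80% of all regions) and 3 were shared (12.0%, against 27.6%). KO-1 had a peak at 3 of the 25 and KO-2 at 6, against 19 and 21 in WT. That is 18.0% ± 8.49 in KO and 80.0% ± 5.66 in WT (SD, n = 2 each), a difference of -62.0 percentage points, and the genotypes did not overlap. The 12 B cell marker genes gave 1 KO-only and 63 WT-only regions of 128 (49.2%), and all 12 had a WT-only region. The part of B cells in the receptor values was not tested.

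Without the B cell receptors, the other 28 members had 1 KO-only region (0.633%) and 15 WT-only regions (9.49%) of 158. That WT-only share lay between the 8.80% of all regions and the 9.65% of regions with a gene.

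**Figure D2:**
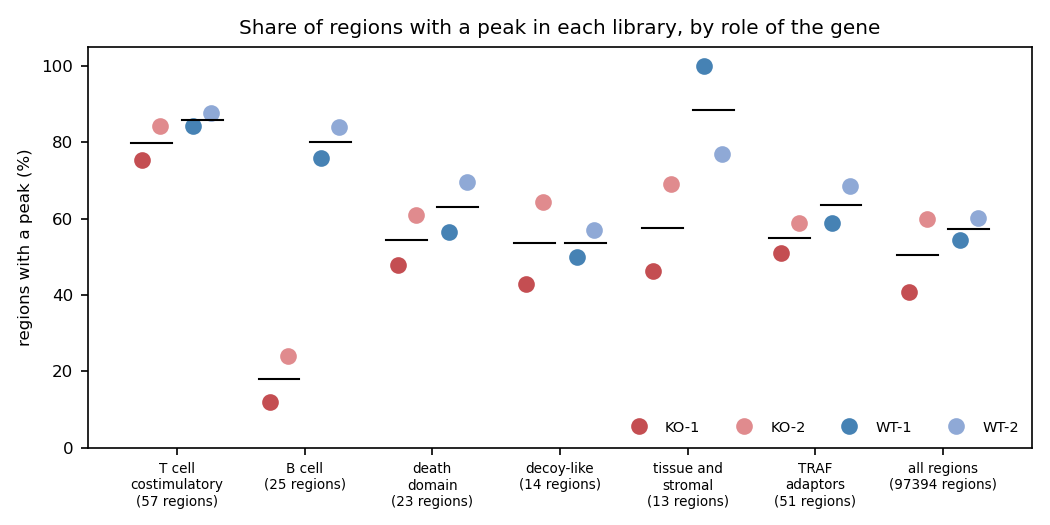
Percent of regions with a peak (y axis) in each library, for the 6 role groups and all regions (x axis), with a point per library and a line at the mean of the 2 libraries of a genotype, KO left of WT. At the B cell receptors the KO libraries lie at 12.0% and 24.0% and the WT libraries at 76.0% and 84.0%.

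Tnfrsf13b encodes TACI, a receptor for BAFF and APRIL on B cells. It held 8 of the 13 WT-only regions, and its 12 regions had 2 peaks in each KO library, against 11 in each WT library. The strongest WT-only region, chr11:61122565-61123328, lay 3809 bp upstream of the start. Its fold enrichment over the caller's background, a value per peak from the authors, was 9.23 and 9.95 in WT. Ranked by fold within its own list, where 100 is the strongest peak, it lay at percentile 83.5 and 86.1 in WT.

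The start itself was open in WT alone. A region at chr11:61126580-61126905 spanned it, with folds of 6.58 and 5.28 and a −log10 q of 24.0 and 16.9. Further upstream lay chr11:61108741-61109429, with folds of 5.53 and 5.54, and chr11:61112299-61112640, with folds of 4.63 and 5.40. Weaker peaks completed the stretch at chr11:61109516-61110071 (3.14 and 2.68), chr11:61112729-61112931 (3.12 and 3.40) and chr11:61116031-61116557 (4.09 and 3.21). The last WT-only region, chr11:61143711-61143944, lay inside the gene and had folds of 2.74 and 3.19. WT-only peaks thus ran from the far upstream side across the start into the gene.

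Tnfrsf13b also had 2 regions open in every library. The region inside the gene at chr11:61142259-61142884 had fold enrichments of 5.64 and 8.75 in KO, against 7.69 and 8.78 in WT. It was the shared region with the highest lowest rank among the B cell receptors. At chr11:61104371-61104795, 22172 bp upstream, the folds were 4.42 and 4.43 in KO and 6.71 and 5.85 in WT. The KO libraries thus had open chromatin at this locus, away from the start.

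**Figure D3:**
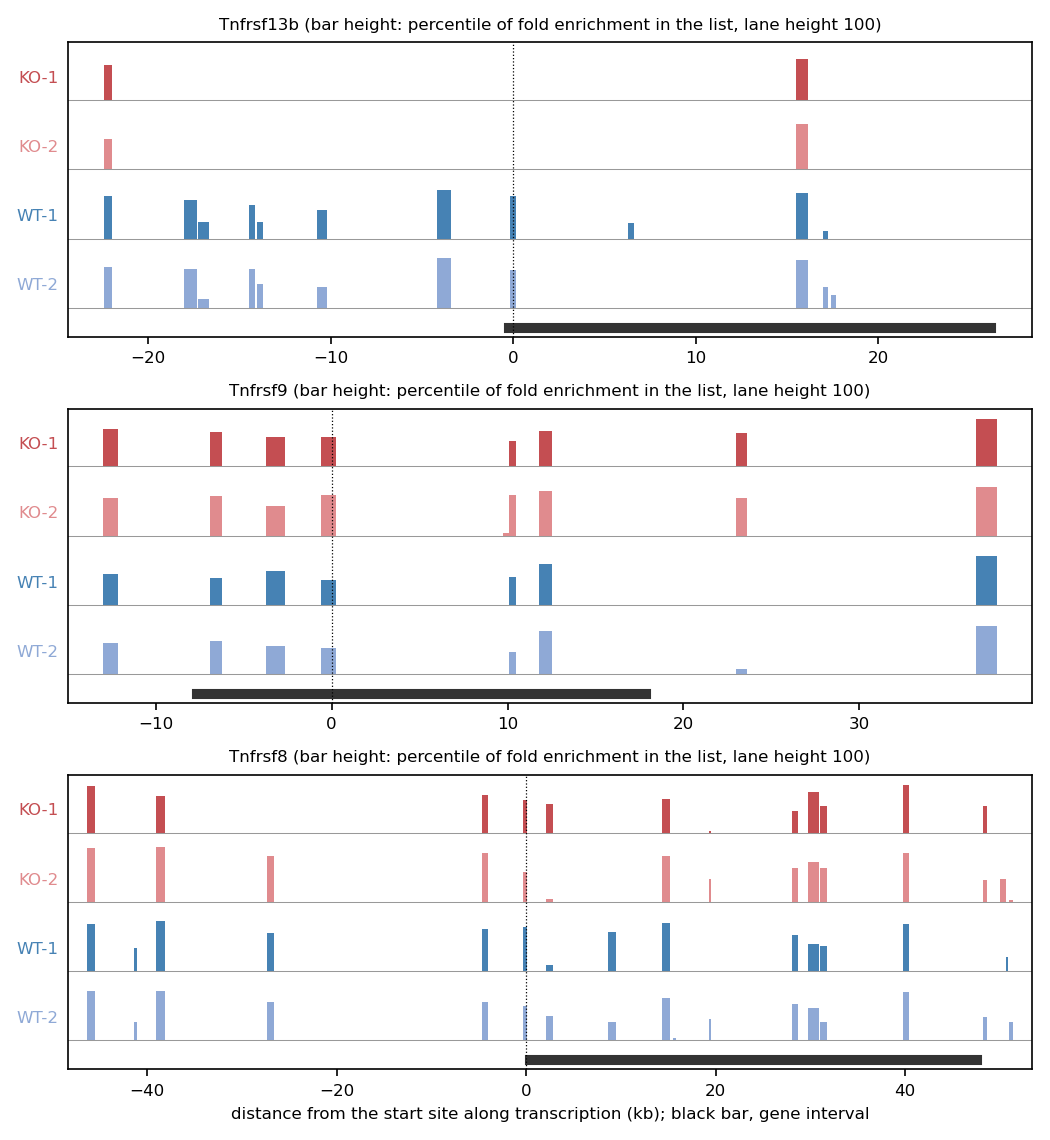
Peaks of the 4 libraries (rows, both KO above both WT) around Tnfrsf13b, Tnfrsf9 and Tnfrsf8, drawn as distance in kb from the gene start (x axis; for Tnfrsf9 the second start), with bar height giving the percentile of fold enrichment in the list, from 0 to 100, and a black bar for the gene interval. At Tnfrsf13b the start and the regions between it and the shared region 22172 bp upstream carry peaks in the WT rows and none in the KO rows, while Tnfrsf9 and Tnfrsf8 carry peaks in all 4 rows.

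Tnfrsf13c encodes the BAFF receptor, needed for the survival of mature B cells. Its start region, chr15:82224074-82225094, was open in every library, with fold enrichments of 3.93 and 4.43 in KO, against 7.30 and 8.63 in WT. Ranked among the 26867 regions open in all 4 libraries, it lay at percentiles 31.3 and 12.8 in KO and 53.9 and 62.0 in WT. Both KO values were below both WT values. Its other region, chr15:82218595-82219738, lay 2576 bp beyond the gene and was WT-only, with folds of 6.09 and 6.66.

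Cd40, the receptor for CD40 ligand on B cells and antigen-presenting cells, had no shared region. Its 7 regions had 0 peaks in KO-1 and 2 in KO-2, against 5 in each WT library. The WT-only region chr2:165055042-165056165 spanned the lower end of the gene interval, with fold enrichments of 7.57 and 8.23 in WT. Next to it inside the gene, chr2:165056380-165056778 had folds of 7.19 and 6.57, and chr2:165061621-165061965 had 3.67 and 3.93. Of the regions with a peak in KO-2, the stronger lay 3479 bp beyond the gene with a fold of 5.36, against 3.68 and 6.11 in WT. All 11 myeloid and dendritic marker genes with a region had a WT-only region, and 2 of them, Itgam and Cebpb, also had a KO-only one. Csf1r, Adgre1, Itgax and Cd68 had no peak in either KO library, and the other marker genes had peaks in both. The part of such cells in the Cd40 values was not tested.

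Tnfrsf17 encodes BCMA, a receptor of plasma cells. Its 4 regions had 0 peaks in KO-1 and 1 in KO-2, against 1 and 3 in WT, and its start had none. The WT-only region chr16:11317432-11317719 lay inside the gene with fold enrichments of 4.74 and 3.67. Counting error cannot be given for such small numbers of peaks. With Tnfrsf13b left out, the other B cell receptors had 0 KO-only and 5 WT-only regions of 13 (38.5%).

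The costimulatory receptors of T cells were open in both genotypes at most of their regions. These 8 genes had 57 regions, of which 37 were shared (64.9%), 0 were KO-only and 5 were WT-only (8.77%, against 8.80% of all regions). KO-1 had a peak at 43 of them and KO-2 at 48, against 48 and 50 in WT. The share was 79.8% ± 6.20 in KO and 86.0% ± 2.48 in WT (SD, n = 2 each), and KO-2 equalled WT-1. Only KO-1, the shortest list, lay below the rest. With every list cut to the length of that one, the difference turned to 1.92 points, higher in KO. The matching value over all regions was not computed. T cell marker genes had peaks at 89 and 119 of 148 regions in KO and at 91 and 90 in WT.

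B cell receptors had a higher WT-only share than T cell receptors under each of the 11 other processing settings tried. Across those settings the share ran between 42.1% and 75.0% at the B cell receptors and between 2.38% and 13.8% at the T cell receptors. With peaks of a −log10 q of at least 10, 9 of 12 B cell receptor regions were WT-only, and 1 of 42 T cell receptor regions was. Of the WT-only regions at the B cell receptors, 7 of 13 reached a −log10 q of 10 in both WT libraries, and at the T cell receptors 1 of 5 did.

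Tnfrsf4 encodes OX40, a costimulatory receptor induced on activated CD4 T cells. Its single region, chr4:156013437-156014344, covered the start and had fold enrichments of 4.11 and 10.03 in KO, against 6.55 and 5.16 in WT. The WT values lay between the KO values. Tnfrsf25, a death domain receptor for TL1A on T cells, also had a single region, chr4:152115757-152116534, which covered both of its listed starts. There the folds were 2.62 and 5.15 in KO and 3.75 and 3.57 in WT, again overlapping. KO-2 gave the highest fold and KO-1 the lowest at both genes.

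The fold enrichment was higher in KO-2 than in KO-1 at 75 of the 76 shared member regions, so ranks within a library are the better measure of a region's standing. Each peak was given its percentile by fold within its own list. Ranks from lists of different lengths do not show a change, so the same was done among the 26867 shared regions alone, where every library ranks the same set. Of the 37 shared T cell receptor regions, both KO percentiles lay above both WT percentiles at 14 (37.8%, against 16.5% of all shared regions), and both WT percentiles lay above both KO percentiles at 7 (18.9%, against 25.9%). Ranked among shared regions alone, the counts were 15 (40.5%, against 22.0%) and 5 (13.5%, against 24.0%). The median difference, KO minus WT, was 1.56 percentile points in the whole lists and 7.55 among shared regions. Over all shared regions these medians were -1.35 and -0.405.

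At the T cell marker genes both KO percentiles lay above both WT percentiles at 20 of 61 shared regions (32.8%) and below them at 6 (9.84%). By peak presence the marker genes had 12 KO-only (8.11%) and 7 WT-only regions (4.73%) of 148, with a difference of 9.12 points, whereas the receptors had 0 KO-only regions and a difference of -6.14. The part of the samples' make-up in the receptor ranks was not tested. Leaving out KO-1 moved the receptors' median difference to 10.2 points, and leaving out KO-2 moved it to -3.01, so its direction depends on which KO library is kept. It was also -0.425 when every region within 25 kb of a receptor was counted.

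**Figure D4:**
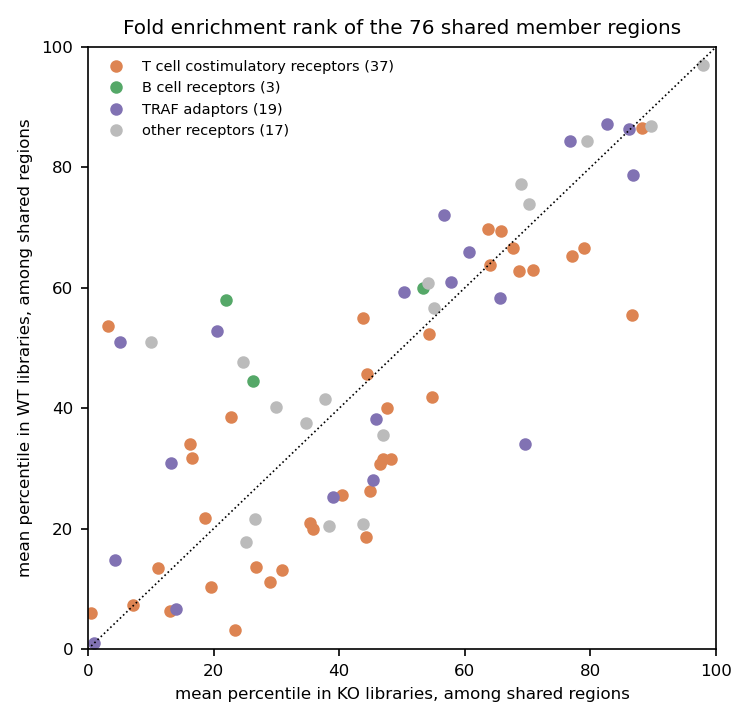
Mean percentile by fold in the KO libraries (x axis) against the mean in the WT libraries (y axis) at the 76 member regions open in every library, ranked among the 26867 shared regions, coloured for the T cell receptors, B cell receptors and TRAF adaptors and grey for the other receptors. Points below the diagonal rank higher in KO, and the 3 B cell receptor regions lie above it.

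Tnfrsf9 encodes CD137, a receptor induced by activation. KO-1 had a peak at 8 of its 9 regions and KO-2 at 9, against 7 and 8 in WT. At 3 of its 7 shared regions both KO percentiles lay above both WT percentiles in the whole lists, and at 1 the reverse held. Ranked among shared regions alone, these counts were 4 and 0. Upstream, chr4:150915023-150915858 had fold enrichments of 4.72 and 5.82 in KO, against 4.32 and 4.11 in WT. The region with the NF-kB and AP-1 motifs, chr4:150927395-150928268, had folds of 3.74 and 6.74 in KO and 3.69 and 3.55 in WT. KO was the higher genotype at both regions, but in KO-1 the peak over the second start itself had a fold of 2.79, below both WT values, so the genotypes overlapped at the start. The first listed start of Tnfrsf9 had no peak in any library.

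Tnfrsf18 encodes GITR, found on regulatory and activated T cells. All 3 of its regions were shared. The upstream region chr4:156021423-156022751 was the strongest, with fold enrichments of 8.21 and 11.02 in KO, against 8.02 and 9.53 in WT. The start region chr4:156026029-156026527 was weak, with folds of 2.22 and 2.67 in KO and 3.34 and 2.79 in WT. Beyond the gene, chr4:156030611-156031140 had folds of 3.92 and 4.81 in KO and 2.47 and 3.01 in WT. WT was the higher genotype at the start and KO beyond the gene.

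Tnfrsf1b encodes TNFR2, the TNF receptor of activated and regulatory T cells. Of its 13 regions, 8 were shared, 0 were KO-only and 1 was WT-only. The strongest shared region of the T cell receptors lay 7724 bp upstream at chr4:145254142-145255047, with fold enrichments of 9.90 and 16.5 in KO, against 14.6 and 12.8 in WT. These values overlapped.

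Regions inside Tnfrsf1b differed in opposite directions. At chr4:145235799-145236595 the percentiles were 91.7 and 94.1 in KO, against 78.2 and 78.3 in WT. Closer to the start, at chr4:145240678-145241348, they were 6.43 and 32.1 in KO and 74.9 and 79.3 in WT. The fold enrichments there were 2.66 and 3.40 in KO and 6.96 and 7.73 in WT, so both WT values exceeded both KO values despite peaks in every library. Its WT-only region, chr4:145233799-145234261, lay inside the gene with folds of 3.91 and 2.86.

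Tnfrsf8 encodes CD30, a receptor of activated lymphocytes, and had more regions than any other member. Of its 19, 10 were shared, 0 were KO-only and 3 were WT-only, with peaks at 12 and 15 in KO, against 15 and 17 in WT. The WT-only region chr4:145305679-145306566 had fold enrichments of 5.75 and 3.10 in WT. At chr4:145356218-145356545 the folds were 3.55 and 3.08, and at chr4:145299440-145299639 they were 2.16 and 2.43, near the floor of the lists. Among its shared regions both KO percentiles were the higher at 3 and both WT percentiles at 2 in the whole lists, and at 4 and 1 among shared regions alone. The largest KO-higher one, chr4:145284300-145285443, had percentiles of 71.3 and 69.5 in KO and 46.4 and 55.3 in WT.

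Tnfrsf14 encodes HVEM, which binds LIGHT and BTLA. KO-1 and KO-2 each had a peak at 4 of its 5 regions, against 5 and 4 in WT. Its start region chr4:154926962-154928796 had fold enrichments of 5.69 and 8.94 in KO and 6.59 and 7.77 in WT. Upstream, chr4:154935789-154937214 had percentiles of 87.4 and 90.4 in KO and 84.8 and 83.6 in WT, and chr4:154943693-154944637 had 79.3 and 82.6 in KO and 85.7 and 86.1 in WT. Neighbouring regions of this gene again differed in opposite directions.

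Cd27, the receptor for CD70 on naive and memory T cells, had 6 regions, with peaks at 4 in each KO library and 5 in each WT library. Of its 3 shared regions, both KO percentiles were the higher at 2 in the whole lists and at 1 among shared regions alone. At chr6:125243674-125244064 the fold enrichments were 4.25 and 5.29 in KO, against 3.08 and 3.89 in WT. Its start region, chr6:125236586-125237822, was weak and overlapped, with folds of 2.46 and 4.45 in KO and 3.60 and 2.62 in WT. The WT-only region chr6:125254228-125254544, upstream, had folds of 3.21 and 2.83.

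Of the 8 T cell receptor genes, 7 lie on chromosome 4, as does Tox, which sits between 6686353 and 6991557, far from the receptors' stretch between 145212368 and 156028894. Member regions on that chromosome numbered 51, of which 0 were KO-only and 4 were WT-only (7.84%). Over all 5612 regions of the chromosome 1.94% were KO-only and 8.43% WT-only. The receptors on the chromosome of Tox thus had about the chromosome's share of WT-only regions.

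The group of 4 death domain receptors, which can pass a death signal to caspases, was open in every library at its 3 listed starts. Those were the starts of Fas, Tnfrsf1a and Tnfrsf21. Other members with a death domain, such as Tnfrsf25, were placed by role in other groups. The 4 genes of this group had 23 regions, of which 7 were shared. KO-only regions numbered 1 (4.35%, against 1.78% of all regions) and WT-only regions 3 (13.0%, against 8.80%). Peaks lay at 11 and 14 in KO and at 13 and 16 in WT, which overlapped. Fas, a receptor of activated lymphocytes, had 6 regions and no KO-only or WT-only one. Its start region chr19:34290065-34291218 had percentiles of 70.8 and 80.0 in KO and 81.1 and 81.2 in WT, while chr19:34299276-34299855, inside the gene, had 69.0 and 70.9 in KO and 49.8 and 56.6 in WT. The start ranked higher in WT and the inner region in KO.

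Tnfrsf1a encodes TNFR1, the widely expressed TNF receptor, and held the only KO-only member region. That region, chr6:125355168-125355700, lay inside the gene, with fold enrichments of 3.02 and 3.91 in KO and a −log10 q of 4.56 and 5.71. It is a weak peak beside most of the WT-only ones. The WT-only region of Tnfrsf1a, chr6:125360887-125361180, also inside the gene, had folds of 3.67 and 4.15. At the start the folds were 5.00 and 8.01 in KO and 4.96 and 5.89 in WT.

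Tnfrsf21 encodes DR6, a death receptor of lymphocytes and neurons. KO-1 and KO-2 each had a peak at 2 of its 8 regions, against 4 and 5 in WT. The WT-only region chr17:43032361-43033347, inside the gene, had fold enrichments of 6.92 and 6.55 in WT, and chr17:43058699-43058923 had 4.13 and 2.97. Its start was open in all libraries, at percentiles of 46.5 and 65.1 in KO and 74.8 and 72.7 in WT. Tnfrsf10b, the mouse TRAIL receptor, had 4 regions and a peak at 3 of them in each library. Its strongest, chr14:69774200-69775685, was the top shared region of the death domain group. The folds there were 7.39 and 11.3 in KO and 12.0 and 11.1 in WT. The percentiles were 81.3 and 86.0 in KO and 90.5 and 88.5 in WT.

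Decoy receptors bind a ligand without a death signal, and 4 members were grouped as decoy-like. Their 14 regions held 4 shared, 0 KO-only and 1 WT-only region (7.14%, against 8.80% of all regions). Peaks lay at 6 and 9 of the 14 in KO and at 7 and 8 in WT. Tnfrsf22, a mouse decoy receptor for TRAIL, had the strongest shared region of all members at chr7:143649019-143649900. Its fold enrichments were 12.8 and 20.9 in KO, against 16.4 and 18.0 in WT, and its percentiles lay between 98.0 and 99.6 in all 4 libraries. The start of the neighbouring decoy receptor Tnfrsf23 had folds of 9.08 and 20.3 in KO and 12.4 and 15.3 in WT. Tnfrsf23 also had a WT-only region inside the gene, chr7:143666585-143667403, with folds of 4.59 and 3.53.

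Tnfrsf26, a related receptor of the same cluster, had 5 regions, of which 2 were shared, with peaks at 2 and 4 in KO and at 3 and 4 in WT. Tnfrsf11b encodes osteoprotegerin, the soluble decoy for RANKL. It had 2 regions, with 1 peak in each KO library, at different places, and 0 in each WT library. Neither counts as KO-only, since neither was found in both KO libraries.

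Among the receptors best known from stroma and other tissues, Ngfr stood out. This gene encodes the low-affinity neurotrophin receptor p75, and both of its regions were WT-only. The start region chr11:95587200-95588042 had fold enrichments of 6.85 and 8.07 in WT with a −log10 q of 33.2 and 48.0. Inside the gene, chr11:95586263-95586538 had folds of 4.55 and 5.14. No peak lay at Ngfr in either KO library. The group of 6 genes had 13 regions, of which 6 were shared, 0 were KO-only and 2 were WT-only (15.4%, against 8.80% of all regions). Peaks lay at 6 and 9 of the 13 in KO and at 13 and 10 in WT.

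Relt, a receptor named for its expression in lymphoid tissue, had 3 regions and all were shared. Its start region chr7:100862504-100863695, the strongest of the group, had fold enrichments of 8.39 and 14.1 in KO, against 13.0 and 13.4 in WT. These folds overlapped, while the percentiles were 85.5 and 92.2 in KO and 92.5 and 93.3 in WT. Ltbr, the lymphotoxin beta receptor of lymph node stroma and myeloid cells, had 1 shared region at its start with folds of 3.60 and 6.06 in KO and 3.36 and 5.29 in WT. Tnfrsf12a, the TWEAK receptor, likewise had 1, with folds of 4.53 and 5.95 in KO and 5.72 and 5.42 in WT. The folds of both genes overlapped between the genotypes. Tnfrsf11a encodes RANK, the receptor for RANKL, and its start had no peak in KO-1 and folds of 5.82 in KO-2, 4.48 and 3.39 in WT. Edar, the ectodysplasin receptor of skin appendages, had a start peak in KO-2 and WT-1 only, with folds of 3.03 and 4.43.

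Across the members, 27 genes with 29 listed starts could be read at the start itself. A window from 250 bp before to 50 bp after was read at each. It overlapped a peak in all 4 libraries at 23 of the 29 (79.3%, against 46.4% of 21263 protein-coding starts). None had a peak in KO alone. Tnfrsf13b and Ngfr had a peak in both WT libraries and neither KO library, which makes 2 of 29 (6.90%, against 1.28%). T cell receptors had a peak in all libraries at 9 of 10 starts, TRAF genes at 6 of 6, and B cell receptors at 1 of 3. Both listed starts of Tnfrsf25 lay in its single region, which therefore counts at each. Regions over a member's own start numbered 26, and 0 of the 183 covered a listed start of another protein-coding gene.

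**Figure D5:**
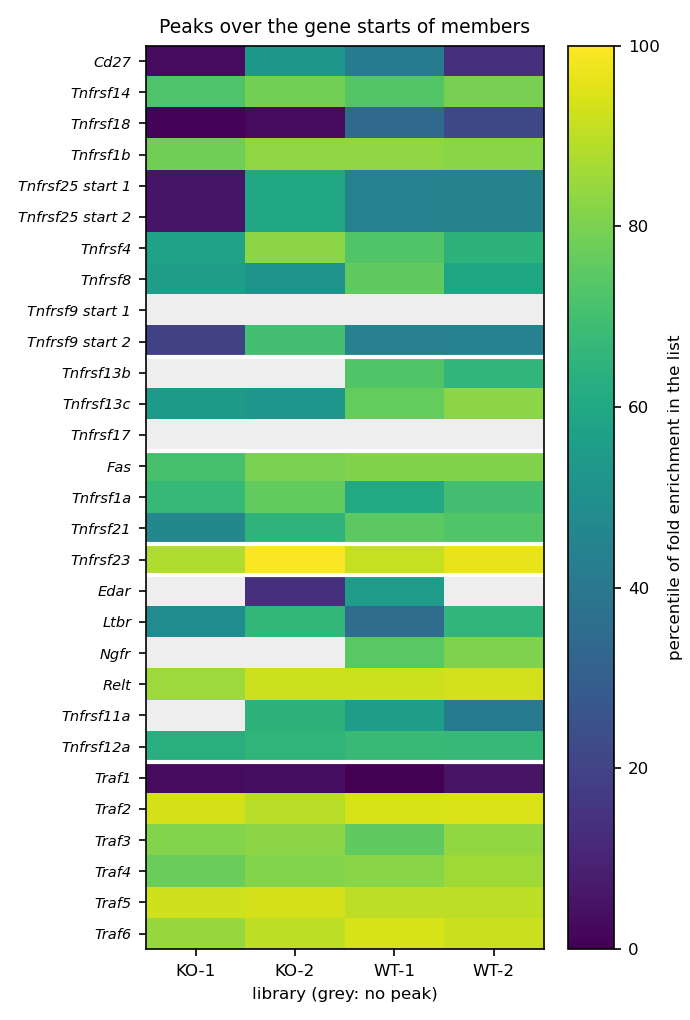
Percentile of fold enrichment (colour, 0 to 100) of the peak over each of the 29 listed starts of 27 member genes (rows) in the 4 libraries (columns, KO left of WT), with grey for no peak. The rows of Tnfrsf13b and Ngfr are grey in both KO columns and filled in both WT columns, and all 6 TRAF rows are filled in every column.

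WT-only member regions were narrower than shared ones, as over all regions. A merged region spans all its peaks, so peaks in more lists make it wider or leave it unchanged. Of the 28, 17 had their midpoint inside the gene interval (60.7%, against 55.2% of all WT-only regions) and 11 outside it. Their median width was 366.5 bp, against 373 bp over all WT-only regions, while the 76 shared member regions had a median of 825.5 bp, against 851 bp over all shared regions. A −log10 q of at least 10 in both WT libraries was reached by 12 of the 28 (42.9%), against 27.4% of all WT-only regions.

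The TRAF adaptors, which link these receptors to NF-kB, were open in both genotypes at every start. Of 51 regions, 19 were shared (37.3%), 0 were KO-only and 4 were WT-only (7.84%, against 8.80% of all regions). KO-1 had a peak at 26 and KO-2 at 30, against 30 and 35 in WT, so that KO-2 equalled WT-1. The share was 54.9% ± 5.55 in KO and 63.7% ± 6.93 in WT (SD, n = 2 each). Both KO percentiles lay above both WT percentiles at 3 of the 19 shared regions (15.8%), and the reverse held at 8 (42.1%), beside 16.5% and 25.9% of all shared regions. Ranked among shared regions alone, the counts were 4 (21.1%) and 7 (36.8%). At the whole member set they were 19 and 23 of 76 in the whole lists.

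Traf1, an adaptor that lacks the RING domain and is itself induced by NF-kB, had 5 shared regions. In the whole lists both KO percentiles were the higher at 0 of them and both WT percentiles at 3, and among shared regions alone these counts were 1 and 2. At chr2:34944753-34945226, inside the gene, the fold enrichments were 3.88 and 4.25 in KO, against 7.14 and 7.34 in WT. It also had 2 WT-only regions, chr2:34941364-34941618 with folds of 3.28 and 2.94, and chr2:34952943-34953486 with folds of 2.80 and 4.06. Its start was among the weakest of the members, with the peak there between percentile 0.259 and 5.18 in every library.

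Traf5, which acts below OX40 and CD27, held the shared TRAF region with the highest lowest percentile. Its start region chr1:192091981-192093234 had percentiles of 92.6 and 93.6 in KO, against 90.2 in each WT library. Inside the gene, chr1:192061524-192063467 had percentiles of 76.1 and 90.1 in KO and 62.2 and 67.0 in WT. At chr1:192078338-192079032 they were 20.2 and 32.1 in KO and 74.2 and 77.0 in WT. Traf5, like Tnfrsf1b, thus held inner regions that ranked higher in KO and others that ranked higher in WT. Its WT-only region chr1:192089820-192090115 had low folds of 2.69 and 2.42, with a −log10 q of 12.3 and 11.2. Of the 14 Traf5 regions, 9 were mixed.

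Traf3, which restrains the noncanonical NF-kB pathway, had 14 regions, of which 3 were shared and 10 mixed. The shared region 6346 bp upstream, chr12:111159618-111160430, had percentiles of 72.0 and 81.6 in KO, against 86.8 and 87.2 in WT. Its WT-only region chr12:111181944-111182331 had folds of 2.75 and 4.06. Traf2, an adaptor with a RING domain used by many of these receptors, had 3 regions and all were shared. At its start the folds were 10.8 and 12.8 in KO and 13.8 and 13.9 in WT.

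Traf4 had 2 regions, both shared, with folds at the start of 6.48 and 9.74 in KO and 8.74 and 9.78 in WT. The percentiles at that start were 77.0 and 81.6 in KO and 82.1 and 85.7 in WT. Traf6, the adaptor of Toll-like and interleukin-1 receptors, had 7 regions, of which 2 were shared and 5 mixed. The Traf6 start had folds of 8.13 and 13.3 in KO and 13.7 and 12.7 in WT. Its percentiles were 84.5 and 90.6 in KO and 93.9 and 91.9 in WT. KO-1 gave the lowest fold at the starts of Traf2, Traf4 and Traf6.

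The ligands of these receptors were described from a list of 17 genes, of which 16 had a region. Of their 125 regions, 4 were KO-only (3.20%, against 1.78%) and 11 were WT-only (8.80%, against 8.80%), each kind at 4 genes. Peaks lay at 61 and 90 in KO and at 78 and 85 in WT, which overlapped. Fasl, the ligand of Fas on cytotoxic and Th1 cells, had 24 regions, of which 0 were KO-only and 6 were WT-only, with peaks at 8 and 13 in KO and at 19 and 20 in WT. Tnfsf18, the ligand of GITR, had 0 KO-only and 3 WT-only regions of 6, with peaks at 1 and 3 in KO and at 4 and 6 in WT.

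Genes that act below the receptors, 26 in all, had 237 regions. Of these, 2 were KO-only (0.844%, against 1.78% of all regions). WT-only regions numbered 24 (10.1%, against 8.80% of all regions and 9.65% of regions with a gene). WT-only regions lay at 11 of these genes and KO-only ones at 2. Of all genes with a region, 26.6% had a WT-only one, and the share with a KO-only one is not given. The 26 genes had 237 regions, against 82780 for all 16541 genes. More regions per gene give more chances of holding one, so these gene counts do not show an excess. Rel, the NF-kB subunit c-Rel of lymphocytes, had peaks at 3 and 5 of 8 regions in KO and at all 8 in each WT library, with 3 WT-only. Nfkb1, which encodes the p50 subunit, had 4 WT-only regions of 36. Tnfaip3, the NF-kB inhibitor A20, had 3 of 24, and Tnfaip8 had 1 KO-only and 3 WT-only of 35.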

How the data were processed

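Each of the 4 ATAC-seq libraries, 2 KO and 2 WT, had its own deposited list of narrow peaks, so replicates were not pooled. The tools named in the submitters' processing notes are MACS2, BWA, Picard, deepTools and SAMtools, and the build is GRCm38, also called mm10. No version, setting or treatment of transposase offsets was given in those notes or the labels. The fold enrichment deposited for each peak is a ratio to the caller's background in its library, and the deposited −log10 p and −log10 q come from the same caller. These values are the authors' own and served only to describe, rank or filter peaks. The deposited score was not used. All deposited −log10 q values were at least 2, and 1603 to 1900 peak numbers per list were missing, so an absent peak may be one that was removed.

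Regions were merged peaks with at least 1 bp of overlap. Gene intervals, starts and upstream sequences came from RefSeq tables on GRCm38.p6, in which 27 of the 32 members had a listed start; exons were not assigned. Where intervals tied (977 regions, 0 at members), the shorter gene was taken. Of the regions, 85.0% had a gene. Where a library had several peaks in a region, the highest fold, −log10 p and −log10 q were each taken, possibly from different peaks. Over a start window the strongest peak by fold stood for the library. Merging, peak presence, WT-only counts and gene assignment were checked on simulated data, and ranking was not. Python 3.11 with pandas 2.3.3 was used.

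No test was run, since lists hold no read counts and each genotype had 2 libraries. The members, role groups, marker and pathway lists were chosen with earlier results of these data known. By rule, the text names every KO-only and WT-only member region, the shared region with the highest lowest percentile per role group, and pathway genes with at least 3 WT-only or 2 KO-only regions. Other regions, and Ngfr's sequence, were picked after their values were seen. Alternatives were stricter peaks, equal list lengths, joining by summits within 150 bp, nearer gene assignment, other rankings and leaving out each replicate.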

Additional observations from a re-analysis of the deposited data

How the results depend on the processing

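B cell receptors had 0 KO-only regions unless KO-1 was left out, and their difference in the percent of regions with a peak (KO minus WT) kept its direction under every setting run. No paired analysis was possible because the results come from no test. Of the values recomputed for all members and the T cell, B cell and TRAF groups, 139 moved by less than the larger SD between replicates of a genotype (counts: by no more than 1.5 times) and 45 by more; for the other 3 groups these numbers were 108 and 30. This tolerance is wide and lets the sign of a small difference turn. The 25 kb window was chosen after seeing the data. Depth is unknown, so a missing peak can reflect a shallow library, and the causes of these moves were not tested, except that stricter or fewer peaks leave fewer regions to count and a left-out library loosens the definition.

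With a −log10 q of at least 10, members had 2 KO-only and 17 WT-only regions, T cell receptors had 1 and 1, and the percent differences were -83.3 at B cell receptors and -19.2 at TRAF genes. With at least 5, T cell receptors had 1 KO-only and 3 WT-only regions, and the B cell receptor percentile difference was -31.3. With lists of equal length, members had 2 KO-only regions and a percent difference of -8.97, T cell receptors had 1 KO-only and 3 WT-only, with a percent difference of 1.92, and TRAF genes had 2 WT-only and a percent difference of -2.44. Joining peaks by summits gave 7 KO-only regions at members, 2 at T cell receptors and 1 at TRAF genes. Within 10 kb of a gene, T cell receptors had 3 WT-only regions. Inside genes, WT-only regions numbered 17 at members, 3 at T cell receptors and 5 at B cell receptors, whose percentile difference was -5.37. It was -2.97 with all regions within 25 kb.

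With each replicate left out in turn, KO-only regions ranged from 4 to 17 at members, 1 to 6 at T cell receptors, 0 to 2 at B cell receptors and 0 to 6 at TRAF genes. WT-only regions ranged from 29 to 46, 5 to 8, 13 to 18 and 5 to 12 in the same order of groups. The percent differences ranged from -23.7 to -10.5, -12.1 to -2.5, -73.9 to -56.0 and -14.6 to -5.32. The percentile differences ranged from -4.26 to 4.02, -3.01 to 10.2, -16.7 to -10.5 and -4.44 to 2.63.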

Other observations

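Tnfrsf19, a receptor of the same superfamily known from the nervous system and skin that was not among the 32 members, went the other way from Tnfrsf13b. Of its 7 regions, 3 were KO-only and 0 were WT-only, with peaks at 6 in KO-1 and 7 in KO-2, against 3 in each WT library. The gene was named by the rule for pathway genes. Eda2r, the other receptor outside the members, had 1 region, which was open in all 4 libraries.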
